A study of Rattus norvegicus with 20 samples.

Results

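The transcripts of 10 inflammatory cytokine genes, Tnf, Il1a, Il1b, Il1rn, Il6, Il10, Il12a, Il12b, Il23a and Lif, were read in blood cells of WKY and LEW rats. A gene was taken as the array probe set whose annotation gives its symbol and no other, and each of the 10 genes had exactly 1 such probe set, so that 10 of the 14497 genes with a symbol of their own, and 10 of 28826 probe sets, are described. The probe sets are called transcripts below. The 20 rats were 15-week-old males of 2 inbred strains, 5 in each of 4 groups: WKY/NCrl rats on the cafeteria diet (WKY CAF), LEW/Crl rats on the cafeteria diet (LEW CAF), WKY/NCrl rats on the standard diet (WKY STD) and LEW/Crl rats on the standard diet (LEW STD). The diets, of which CAF is a choice of palatable human foods, were given for 7 weeks, and blood was drawn after a 9 h fast, which all groups shared. RNA of each rat was hybridised to 1 Rat Gene 1.0 ST array. The labels name peripheral blood mononuclear cells from a density gradient, whereas the study's methods add a step in which cells were left to adhere to plastic and the washed, adherent monocytes were kept.

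Monocytes release these cytokines when receptors for microbial or damage signals activate NF-kB and related transcription factors. Tumour necrosis factor, the interleukin 1 agonists and interleukin 6 drive fever, endothelial activation and the acute phase response of the liver, and their mRNAs are short-lived. Interleukins 12 and 23 direct T cells and natural killer cells, the interleukin 1 receptor antagonist blocks the agonists at their receptor, and interleukin 10 restrains the production of the others.

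The deposited values are log2 signals normalised between arrays, in which a difference of 1 is a 2-fold change. Array medians lay between 6.83 and 6.90 and array-to-array correlations between 0.985 and 0.997. The monocyte markers Cd14 and Lyz2 averaged 12.63 and 13.24 in WKY CAF, 12.79 and 13.42 in LEW CAF, 12.70 and 13.29 in WKY STD, and 12.72 and 13.40 in LEW STD rats, and the T cell marker Cd3e (12.17 to 12.36) and the B cell marker Cd79b (12.06 to 12.32) were also well above the low-signal range in all 4 groups. Fewer cells of a type and less RNA per cell cannot be told apart in such bulk RNA. Arrays LEW CAF 2, WKY STD 1, LEW STD 2 and LEW STD 3 stood apart in a heat shock score, the mean over 13 heat shock genes of the difference from their 20-array means, at 0.583 to 1.27 against -0.266 to -0.147 on the other 16 arrays, and results are given below without these 4 arrays where that changes a call. The 4 arrays were singled out after their values were seen.

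Promoters of 7 of the 10 genes are in the RefSeq table of assembly GRCr8 (Il10, Il12b and Lif are not). The 250 bases before the start of Tnf (chr20:3626435-3626684, plus strand), Il1a (chr3:136990018-136990267, minus strand), Il6 (chr4:5894576-5894825, minus strand) and Il23a (chr7:1308435-1308684, minus strand) are shown because these 4 genes had the largest strain differences of the 7. Capitals mark matches, on either strand, to the kB motif (GGGA, any base, TTTCC), the C/EBP motif TTGNNCAA, the cyclic AMP response element TGACGTCA, the AP-1 motif TGANTCA or the TATA motif TATAAA.
Tnf: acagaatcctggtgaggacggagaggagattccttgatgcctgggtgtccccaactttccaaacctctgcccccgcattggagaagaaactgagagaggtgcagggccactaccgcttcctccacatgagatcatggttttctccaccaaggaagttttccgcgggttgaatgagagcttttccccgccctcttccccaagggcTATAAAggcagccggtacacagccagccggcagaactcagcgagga
Il1a: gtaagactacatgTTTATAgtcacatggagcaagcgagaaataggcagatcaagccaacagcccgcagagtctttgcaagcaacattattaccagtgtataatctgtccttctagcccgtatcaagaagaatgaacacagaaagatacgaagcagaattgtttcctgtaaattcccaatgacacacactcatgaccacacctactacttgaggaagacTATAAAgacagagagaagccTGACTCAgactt
Il6: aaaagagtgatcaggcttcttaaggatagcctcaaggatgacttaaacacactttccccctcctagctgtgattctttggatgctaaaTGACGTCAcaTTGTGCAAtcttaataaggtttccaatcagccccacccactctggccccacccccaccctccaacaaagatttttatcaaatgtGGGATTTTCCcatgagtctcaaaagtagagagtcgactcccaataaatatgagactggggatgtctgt
Il23a: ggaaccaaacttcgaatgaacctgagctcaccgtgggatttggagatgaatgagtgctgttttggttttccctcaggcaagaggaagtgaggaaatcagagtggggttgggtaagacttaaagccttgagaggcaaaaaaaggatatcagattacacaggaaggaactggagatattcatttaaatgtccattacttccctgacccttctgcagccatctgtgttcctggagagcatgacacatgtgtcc
The Il6 promoter held a kB match 68 bases, a C/EBP match 152 bases and a cyclic AMP response element 162 bases before its start, motifs found in 0.314%, 5.25% and 1.59% of 33469 RefSeq rat promoters. That of Il1a held an AP-1 match 12 bases before the start (6.34% of promoters) and TATA matches 32 bases and, on the opposite strand, 237 bases before it, and that of Tnf a TATA match 46 bases before the start (12.9% of promoters). None of these letters stood in the Il23a window. The promoters of Il1b, Il12a and, on the opposite strand, Il1rn held a TATA match at 60, 47 and 64 bases and no other. In GRCr8 the neighbours of these genes include relatives: Il1a lies next to Il1b on chromosome 3, Tnf between Lta and Ltb on chromosome 20, Lif next to Osm on chromosome 14 and Il10 next to Il19 on chromosome 13.

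The first question was how cytokine transcripts differ between the strains on each diet. On CAF, all 10 transcripts were higher on average in WKY than in LEW rats, and 6 of 10 passed the test (limma, adjusted p under 0.05 over all transcripts), all of them higher: Tnf, Il1a, Il1b, Il12a, Il23a and Lif. Of all transcripts 7.58% were called in this comparison and 4.24% were called higher. On STD, 8 of 10 were called, again all higher, with Il1rn and Il6 added to the 6, where 11.3% of all transcripts were called and 5.88% called higher. The median log2 fold change of the 10 was 0.87 on CAF and 0.83 on STD, beside -0.01 and 0.00 over all transcripts. Both comparisons have 5 rats a group and share no array. Every WKY rat was above every LEW rat for 5 transcripts on CAF (Tnf, Il1a, Il1b, Il12a and Il23a) and for 7 on STD (these 5, Il1rn and Il6), a pattern that 4.16% and 4.37% of all transcripts had.

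**Figure D1:**
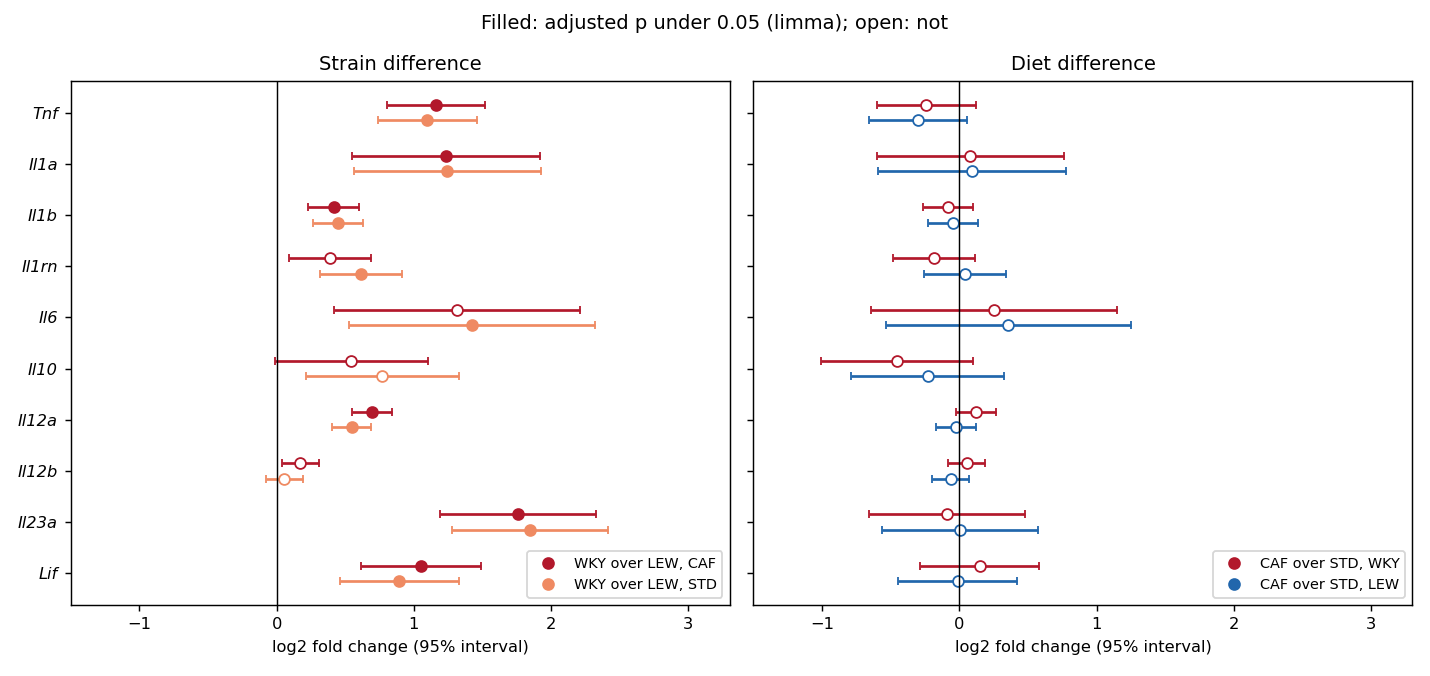
Log2 fold changes of the 10 transcripts with 95% intervals (limma, 5 rats a group), WKY over LEW on each diet at left and CAF over STD in each strain at right, with filled points for an adjusted p under 0.05. In the strain panel all points lie right of 0, and 6 (CAF) and 8 (STD) of 10 are filled, whereas no point of the diet panel is.

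Tnf encodes tumour necrosis factor, a cytokine made as a membrane protein and shed by the protease ADAM17. Its log2 signal was 13.19, 13.18, 12.86, 12.74 and 12.91 in WKY CAF rats, against 12.08, 11.09, 11.85, 11.77 and 12.27 in LEW CAF rats. On STD it was 13.31, 13.42, 13.15, 13.03 and 13.18 in WKY rats, against 12.55, 12.15, 12.11, 11.71 and 12.07 in LEW rats. The lowest WKY rat of either diet was above the highest LEW rat, and the lowest value of all was that of LEW CAF rat 2. The log2 fold change, WKY over LEW, was 1.16 (SE 0.17, adjusted p = 1.22e-04) on CAF and 1.10 (SE 0.17, adjusted p = 1.74e-04) on STD.

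The interleukin 1 agonists share a receptor: IL1A acts as a precursor and on the cell surface, and IL1B is released after cleavage by caspase 1. Il1a was at 12.39, 12.29, 12.11, 12.37 and 12.40 in WKY CAF rats, against 11.35, 10.55, 10.50, 10.95 and 12.04 in LEW CAF rats. On STD Il1a was at 12.02, 12.52, 12.22, 12.32 and 12.09 in WKY rats, against 11.87, 11.67, 11.05, 9.55 and 10.81 in LEW rats. WKY rats lay close together and LEW rats far apart, with the highest LEW rat just under the lowest WKY rat on both diets. Il1a had log2 fold changes of 1.23 (SE 0.33, adjusted p = 0.0222) on CAF and 1.24 (SE 0.33, adjusted p = 0.0159) on STD. Il1b differed less, by 0.41 (SE 0.09, adjusted p = 0.00420) on CAF, with values of 13.31 to 13.53 in WKY against 12.75 to 13.16 in LEW rats, and by 0.45 (SE 0.09, adjusted p = 0.00153) on STD, with 13.43 to 13.66 in WKY against 12.85 to 13.35 in LEW rats. The CAF call of Il1a ended without LEW CAF rat 2 (adjusted p = 0.0577), without LEW CAF rat 3 (adjusted p = 0.0706) and without the 4 arrays of high heat shock score (adjusted p = 0.0650).

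Il1rn, which encodes the interleukin 1 receptor antagonist, was called on STD and not on CAF. Its values were 13.13, 13.04, 13.00, 13.01 and 13.13 in WKY CAF rats, against 12.48, 12.47, 12.43, 12.86 and 13.14 in LEW CAF rats. On STD they were 13.26, 13.24, 13.21, 13.22 and 13.33 in WKY rats, against 12.72, 12.82, 12.72, 11.99 and 12.92 in LEW rats. The groups overlapped on CAF only through LEW CAF rat 5, and did not overlap on STD. Expressed as log2 fold changes, the strain difference was 0.39 (SE 0.14, adjusted p = 0.119) on CAF and 0.62 (SE 0.14, adjusted p = 0.00674) on STD, and the CAF difference passed without LEW CAF rat 5 (adjusted p = 0.0249) and without LEW STD rat 4 (adjusted p = 0.0212), whose array enters the shared estimate of the spread.

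**Figure D2:**
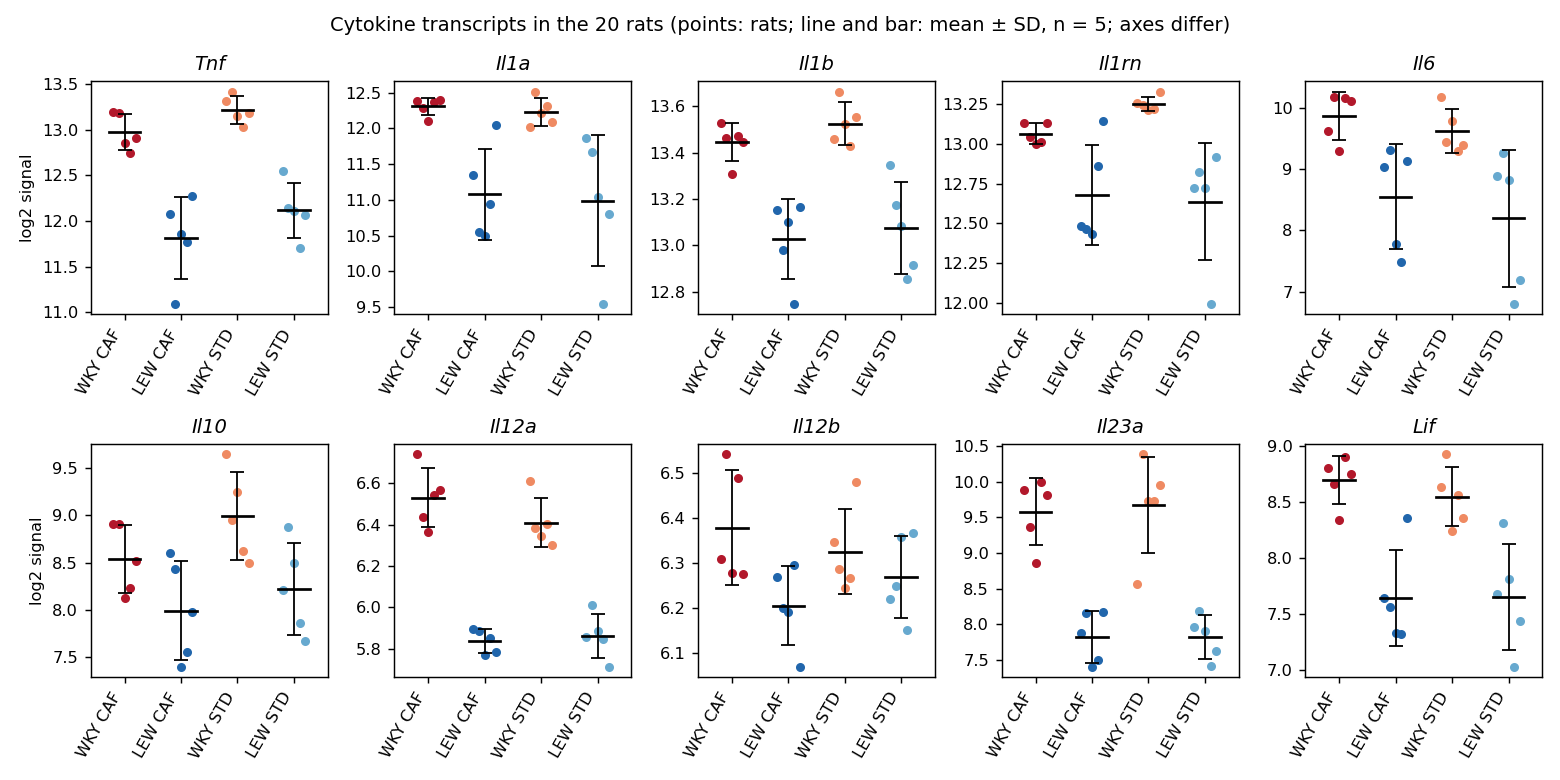
Log2 signal of each transcript (vertical axes differ) in the 5 rats of each group, with the group mean and SD. For Tnf, Il1a, Il1b, Il12a and Il23a the points of WKY rats do not overlap those of LEW rats on the same diet, on either diet, and Il12b is the transcript whose groups lie closest together.

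Il6 and Lif belong to the cytokine family that signals through the GP130 receptor chain and STAT3. Il6 was at 9.62, 10.17, 9.29, 10.15 and 10.10 in WKY CAF rats, against 9.04, 9.32, 7.78, 7.48 and 9.14 in LEW CAF rats. On STD Il6 was at 10.18, 9.44, 9.78, 9.29 and 9.40 in WKY rats, against 8.89, 9.25, 8.82, 6.80 and 7.19 in LEW rats. In each LEW group 3 rats lay near 9 and the other 2 below 8, and the groups overlapped on CAF, by LEW CAF rat 2 over WKY CAF rat 3, and not on STD. For Il6 the log2 fold change was 1.32 (SE 0.43, adjusted p = 0.0697) on CAF and 1.42 (SE 0.43, adjusted p = 0.0360) on STD, both near the threshold. Without LEW CAF rat 2 or LEW STD rat 4 the CAF difference passed (adjusted p = 0.0443 and 0.0344), as it did without the 4 arrays of high heat shock score (adjusted p = 0.0254). The STD call ended without any 1 of LEW STD rats 4 and 5 and WKY STD rats 1, 2, 3 and 5 (adjusted p = 0.0557 to 0.106). When limma was fitted to only the 2 groups compared, Il6 passed on CAF (adjusted p = 0.0425) and not on STD (adjusted p = 0.0688).

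Lif, leukaemia inhibitory factor, was at 8.80, 8.66, 8.34, 8.90 and 8.75 in WKY CAF rats, against 7.64, 7.56, 7.32, 7.32 and 8.36 in LEW CAF rats. On STD it was at 8.64, 8.93, 8.24, 8.56 and 8.36 in WKY rats, against 7.68, 8.31, 7.81, 7.03 and 7.44 in LEW rats. On each diet a single LEW rat, LEW CAF 5 or LEW STD 2, reached above the lowest WKY rat, and the other 4 LEW rats of each diet were below all WKY rats. Lif differed by log2 fold changes of 1.05 (SE 0.21, adjusted p = 0.00237) on CAF and 0.89 (SE 0.21, adjusted p = 0.00694) on STD.

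Interleukin 12 pairs the p35 subunit, encoded by Il12a, with the p40 subunit, encoded by Il12b, and interleukin 23 pairs p40 with the p19 subunit, encoded by Il23a. Il23a had the largest strain difference of the 10 transcripts on both diets. It was at 9.88, 9.37, 8.86, 9.99 and 9.82 in WKY CAF rats, against 7.88, 8.17, 7.41, 7.50 and 8.17 in LEW CAF rats. On STD Il23a was at 8.56, 10.39, 9.73, 9.73 and 9.95 in WKY rats, against 7.97, 8.19, 7.90, 7.42 and 7.63 in LEW rats. No WKY rat overlapped a LEW rat, and WKY STD rat 1, one of the 4 arrays of high heat shock score, was the lowest of the WKY rats. The log2 fold change was 1.76 (SE 0.27, adjusted p = 2.02e-04) on CAF and 1.85 (SE 0.27, adjusted p = 9.36e-05) on STD.

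Il12a had the smallest adjusted p of the 10 on both diets. It was at 6.74, 6.44, 6.36, 6.55 and 6.57 in WKY CAF rats, against 5.90, 5.89, 5.77, 5.85 and 5.78 in LEW CAF rats, which makes a difference of 0.69 on the log2 scale (SE 0.07, adjusted p = 9.03e-07). On STD it was at 6.61, 6.39, 6.35, 6.41 and 6.30 in WKY rats, against 5.86, 6.01, 5.88, 5.85 and 5.71 in LEW rats, with a difference of 0.55 (SE 0.07, adjusted p = 1.71e-05). The WKY and LEW rats did not overlap. Signal was low on average: the 20-array mean of Il12a (6.16), like that of Il12b (6.29), was under the 95th percentile (6.34) of 59 olfactory receptor transcripts, which blood cells are not known for. For Il12a all LEW rats were below this percentile, whereas all WKY CAF rats, and all WKY STD rats except rat 5, were just above it. The other 8 cytokine transcripts were above at least 98.3% of these olfactory receptor transcripts. Il12b, the subunit common to both cytokines, was at 6.28 to 6.54 in WKY CAF against 6.07 to 6.30 in LEW CAF rats, and at 6.25 to 6.48 in WKY STD against 6.15 to 6.37 in LEW STD rats. The groups overlapped, and its log2 fold change was 0.17 (SE 0.06, adjusted p = 0.123) on CAF and 0.06 (SE 0.06, adjusted p = 0.673) on STD.

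Il10 encodes interleukin 10, a cytokine that restrains the production of the others. It was at 8.90, 8.90, 8.13, 8.23 and 8.52 in WKY CAF rats, against 8.60, 8.43, 7.40, 7.55 and 7.98 in LEW CAF rats. On STD it was at 9.64, 8.95, 9.24, 8.62 and 8.50 in WKY rats, against 8.21, 8.88, 8.50, 7.86 and 7.67 in LEW rats. The strains overlapped on both diets. The log2 fold change was 0.55 (SE 0.27, adjusted p = 0.282) on CAF and 0.77 (SE 0.27, adjusted p = 0.0702) on STD, and neither passed, although the STD difference passed without LEW STD rat 2 (adjusted p = 0.0286) and without the 4 arrays of high heat shock score (adjusted p = 0.0381).

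Averaged over both diets, a contrast added after the data were seen, 9 of the 10 transcripts were higher in WKY rats, beside 17.2% of all transcripts called and 8.74% called higher. In this contrast the log2 fold change of Il10 was 0.66 (adjusted p = 0.0186), that of Il6 1.37 (adjusted p = 0.00279), that of Il1rn 0.50 (adjusted p = 0.00123) and that of Il12b, the exception, 0.11 (adjusted p = 0.0958). None of the 9 calls ended when any 1 rat was left out.

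The second question was whether the cafeteria diet moved these transcripts. No cytokine transcript was called between CAF and STD in WKY or in LEW rats, and neither was any of the 28826 transcripts (0% in both strains by limma). At an unadjusted p under 0.05 there were 0 of the 10 in either strain, beside 2539 of all transcripts in WKY and 1575 in LEW rats. The largest diet differences by size were those of Il10 in WKY rats, with a log2 fold change, CAF over STD, of -0.45 (95% interval -1.01 to 0.10, adjusted p = 0.662), and of Il6 in LEW rats, at 0.36 (95% interval -0.54 to 1.25, adjusted p = 0.972). Tnf was lower on CAF by a like amount in each strain, at -0.24 in WKY (95% interval -0.60 to 0.12, adjusted p = 0.737) and -0.30 in LEW rats (95% interval -0.66 to 0.06, adjusted p = 0.922). Averaged over the strains, also added after the data were seen, Tnf was at -0.27 (95% interval -0.53 to -0.02, unadjusted p = 0.0372, adjusted p = 0.571 by limma), the only one of the 10 under an unadjusted 0.05, as were 2382 of all transcripts. All WKY CAF rats were below all WKY STD rats for Il1rn, at 13.00 to 13.13 against 13.21 to 13.33 (log2 fold change -0.19, adjusted p = 0.757), a separation that 0.961% of all transcripts had in that direction.

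The 95% interval of the diet difference lay within 1.5-fold in either direction for 5 of the 10 transcripts in WKY rats (Il1b, Il1rn, Il12a, Il12b and Lif) and for 6 in LEW rats (the same 5 and Il23a), beside 96.5% of all transcripts in WKY and 97.4% in LEW rats. For the others the interval reached beyond 1.5-fold, and for Il6 it reached 1.15 in WKY and 1.25 in LEW rats on the log2 scale. The strain differences did not detectably depend on the diet: the interaction, the diet effect in WKY minus that in LEW rats, was between -0.23 (Il1rn) and 0.16 (Lif), with adjusted p from 0.898 to 0.999 and 0 of 10 called (0% of all transcripts by limma; 0 of the 10 and 1714 of all transcripts at an unadjusted p under 0.05). Its interval was widest for Il6, from -1.37 to 1.16.

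The rats of a group differed by unequal amounts from gene to gene and, for some genes, from strain to strain. The SD of Il6 was 0.39 in WKY CAF against 0.85 in LEW CAF rats, and 0.36 in WKY STD against 1.11 in LEW STD rats. For Il1a it was 0.12 in WKY CAF against 0.64 in LEW CAF rats, and 0.20 in WKY STD against 0.92 in LEW STD rats, and for Il1rn 0.07 in WKY CAF against 0.31 in LEW CAF rats, and 0.05 in WKY STD against 0.37 in LEW STD rats. Of the 10 transcripts, 7 varied more in LEW rats by the mean absolute deviation from the group mean, and Il12a, Il12b and Il23a varied more in WKY rats, beside 53.4% of all transcripts that varied more in LEW rats. Each absolute deviation was first scaled up, by the square root of the group size over the group size less 1. In limma on the absolute deviations, a test added after the data were seen, none of the 10 and none of all transcripts was called (0%). At an unadjusted p under 0.05 there were 4 of the 10 and 3298 of all transcripts. This test misses most changes of spread with 5 rats a group. On simulated data with the SD of 200 of 28826 transcripts raised 8-fold in LEW rats, 65 were recovered, with 13 false calls. A lack of calls therefore does not show an equal spread. The scaled mean absolute deviation of Il6 was 0.35 in WKY against 0.95 in LEW rats (adjusted p = 0.0759), that of Il1rn 0.05 in WKY against 0.29 in LEW rats (adjusted p = 0.177) and that of Il1a 0.13 in WKY against 0.64 in LEW rats (adjusted p = 0.249). Without the 4 arrays of high heat shock score Il1rn (adjusted p = 0.0225) and Il6 (adjusted p = 0.0227) were called, and Il6 was also called without any 1 of LEW STD rats 1, 2 and 3, WKY STD rats 1 and 2, and LEW CAF rats 2 and 5 (adjusted p = 0.0136 to 0.0489).

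**Figure D3:**
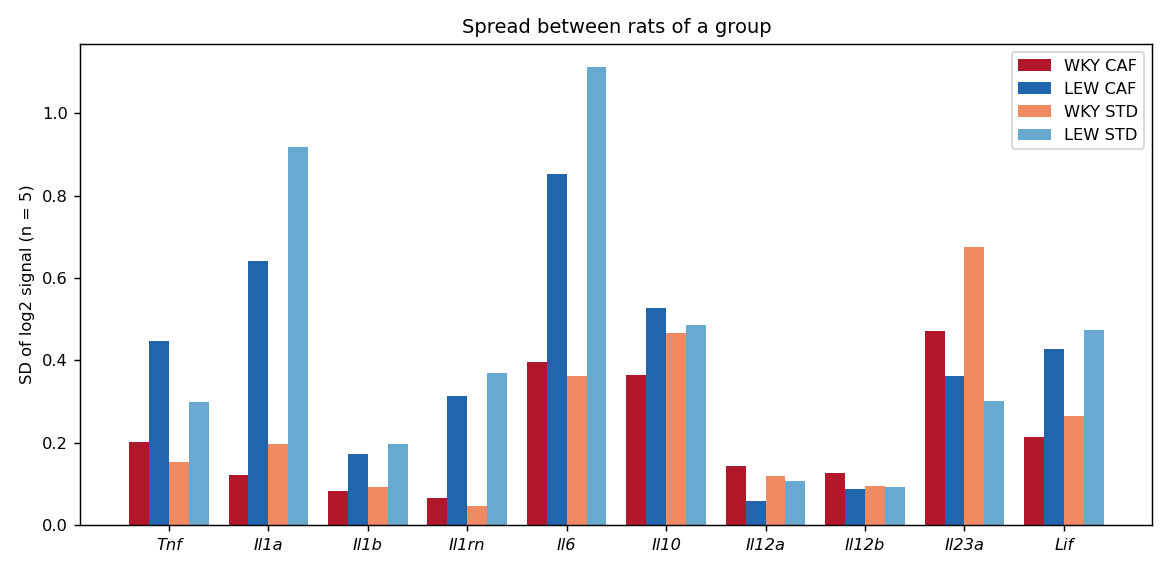
SD of the log2 signal over the 5 rats of each group, for each transcript. The tallest bars are those of LEW rats for Il6 (0.85 on CAF and 1.11 on STD) and of LEW STD rats for Il1a (0.92). The bar of WKY STD rats for Il23a (0.68) is above that of LEW CAF rats for Il1a (0.64). The WKY bars of Il1rn are among the lowest (0.07 on CAF and 0.05 on STD).

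Within groups, rats that were high in 1 cytokine transcript tended to be high in others. Deviations of each rat from its group mean were correlated over the 20 rats for all 45 pairs, with p from 100000 two-sided permutations within groups, adjusted over the 45 pairs. Of these, 37 pairs had a positive Pearson r, the median r was 0.32, and 8 pairs were called, all positive (10 by Spearman's rho). The same counts were not computed for pairs of other transcripts, so they are not shown to be particular to cytokines. Il6 and Il10, a pair of opposed roles in inflammation, had r = 0.77 (permutation p = 7.60e-04, adjusted p = 0.0238) and rho = 0.79 (permutation p = 4.70e-04, adjusted p = 0.0116), and r = 0.77 without the 2 rats farthest out in Il6 (permutation, adjusted p = 0.0240), but without the 4 arrays of high heat shock score r was 0.63 and the call ended (permutation, adjusted p = 0.0796). Il1a and Lif had r = 0.79 (permutation p = 0.00171, adjusted p = 0.0238) and rho = 0.74 (permutation p = 0.00103, adjusted p = 0.0116), but without LEW STD rat 4 and LEW CAF rat 5, farthest out in Il1a, r was 0.51 (permutation, adjusted p = 0.233), so that the call rests on those rats. Il23a and Lif had r = 0.55 (permutation p = 0.00541, adjusted p = 0.0348) and rho = 0.71 (permutation p = 9.00e-04, adjusted p = 0.0116), and r = 0.80 without WKY STD rat 1 and WKY CAF rat 3 (permutation, adjusted p = 0.00675).

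The other 5 called pairs were Tnf with Il1a (r = 0.71, rho = 0.55), Il6 with Lif (r = 0.71, rho = 0.66), Il10 with Il12a (r = 0.68, rho = 0.69), Il1b with Il23a (r = 0.55, rho = 0.63) and Il1a with Il23a (r = 0.48, rho = 0.63), at adjusted permutation p of 0.0238 to 0.0371. Without their 2 farthest rats none of these 5 passed (adjusted permutation p = 0.0694 to 0.211), though each r stayed positive. Without the 4 arrays of high heat shock score 7 of the 45 pairs were called: besides Il6 with Il10, the calls of Il6 with Lif (r = 0.66, adjusted permutation p = 0.0796) and Il10 with Il12a (r = 0.47, adjusted permutation p = 0.195) ended, and Tnf with Il1b (r = 0.81, adjusted permutation p = 0.0160) and Il1b with Il6 (r = 0.82, adjusted permutation p = 0.0337) were added. With the heat shock score regressed out Il10 with Il12a did not pass either (r = 0.49, adjusted permutation p = 0.108). Il1a and its antagonist Il1rn had r = 0.77 (adjusted permutation p = 0.0915), which was -0.01 without LEW STD rat 4 and LEW CAF rat 5. Il12b stood outside these relations, with a highest r of 0.13. The calls depended on single rats: without LEW STD rat 5 none of the 45 pairs passed, without LEW STD rat 4 only 2, and without LEW CAF rat 5 or WKY CAF rat 3 only 3 did. Without LEW STD rat 5 the 8 pairs kept r of 0.47 to 0.79, at adjusted permutation p of 0.0515 to 0.0689.

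Among the 10 WKY rats the median r of the 45 pairs was 0.20 and none was called (5 at an unadjusted permutation p under 0.05), and among the 10 LEW rats the median r was 0.49 and 2 pairs were called. Il6 and Il23a had r = -0.21 in WKY rats (permutation, adjusted p = 0.944) and 0.93 in LEW rats (permutation, adjusted p = 0.0207), and Il1a and Il23a had 0.83 in WKY and 0.69 in LEW rats. The difference of r between strains was not tested.

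**Figure D4:**
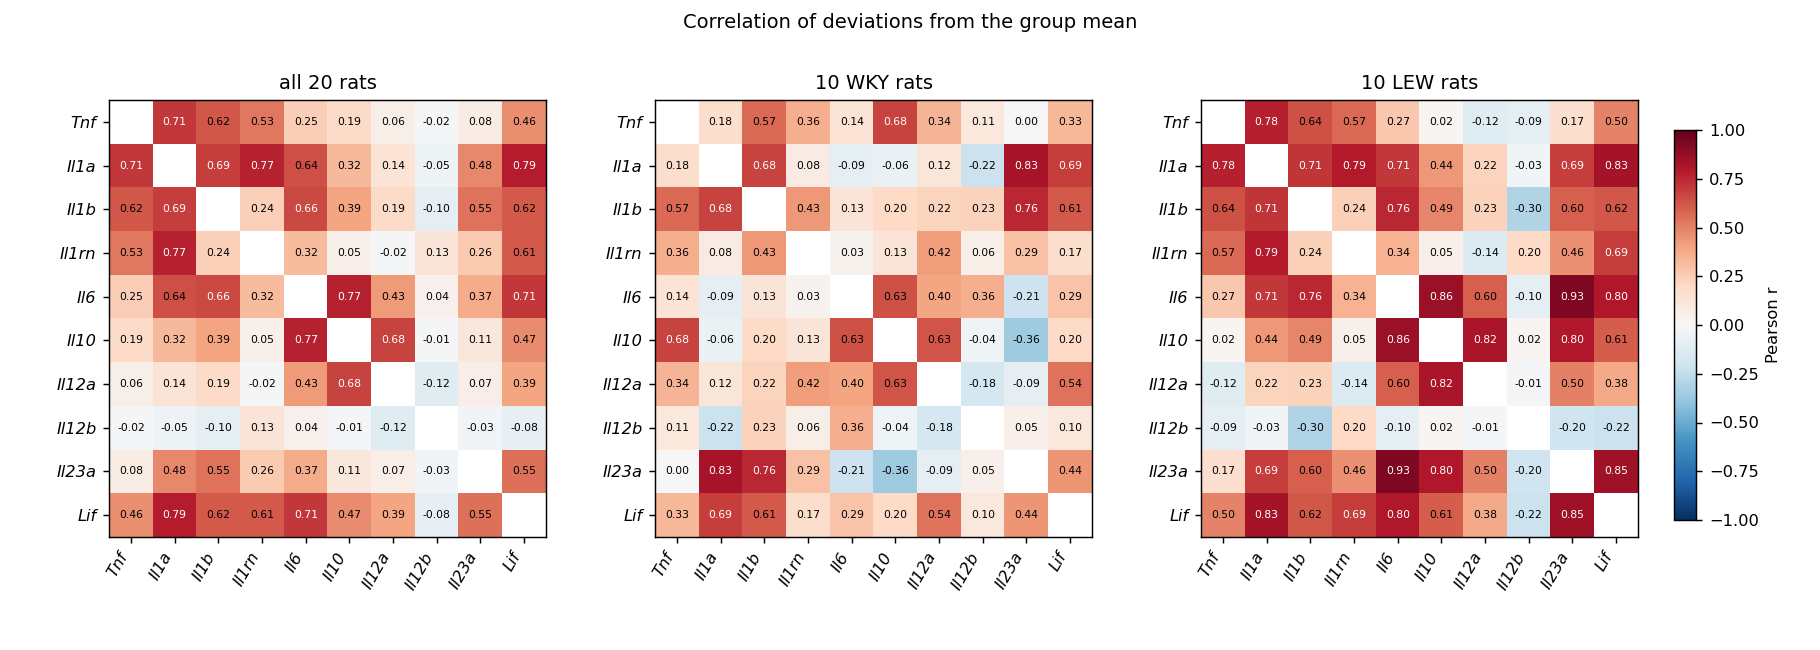
Pearson r of the deviations from the group mean for each pair of transcripts, over all 20 rats, over the 10 WKY rats and over the 10 LEW rats. Il6 and Il23a are at -0.21 in the WKY panel and at 0.93 in the LEW panel, most of whose cells are red, and the row of Il12b is near 0 in the panel of all rats.

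Markers of other cells moved with the strain. Of 14 neutrophil markers, 5 were higher in WKY rats on CAF and 10 on STD, none lower. The neutrophil score, the mean over these markers of the difference from their 20-array means, was -0.10 to 0.80 in WKY CAF against -0.81 to 0.20 in LEW CAF rats, and -0.08 to 1.22 in WKY STD against -1.11 to -0.52 in LEW STD rats. S100a8, which monocytes also express, averaged 8.85 in WKY CAF against 7.47 in LEW CAF rats, and 9.11 in WKY STD against 7.14 in LEW STD rats. Pglyrp1 averaged 10.32 in WKY CAF against 8.24 in LEW CAF rats, and 10.59 in WKY STD against 7.94 in LEW STD rats. For Lcn2 the averages were 10.06 against 8.96 on CAF and 10.19 against 8.40 on STD, WKY first. For Camp they were 8.52 against 7.73 and 9.01 against 7.50. The markers Ltf, Elane and Mpo were not called on either diet (log2 fold changes of -0.03, 0.02 and 0.11 on CAF and 0.08, 0.20 and 0.17 on STD). Their group averages, 5.71 to 5.79, 6.51 to 6.71 and 5.88 to 6.07, lay under or near the 95th percentile of olfactory receptor transcripts (6.34). Of 9 natural killer cell markers 6 and 8 were higher in WKY rats and 1 lower on each diet. Of 14 monocyte markers 6 were lower on each diet and 2 higher on STD, with scores of -0.63 to -0.12 in WKY CAF against 0.04 to 0.33 in LEW CAF rats, and -0.27 to 0.01 in WKY STD against 0.12 to 0.27 in LEW STD rats. Among them Fn1 (-1.39 on CAF and -1.28 on STD), Ccr2 (-1.38 and -1.01) and Cx3cr1 (-1.28 and -0.95) were lower on both diets, and Cd14 and Lyz2 were not called on either. Itgam averaged 10.99 in WKY STD against 10.51 in LEW STD rats, and 10.48 in WKY CAF against 10.62 in LEW CAF rats. For Cd68 the averages were 11.39 against 11.05 on STD and 11.03 against 11.05 on CAF, WKY first. Of 13 erythroid markers 4 were lower and 1 higher on CAF, and 3 were lower and 1 higher on STD. Of 12 T cell markers 4 were lower on CAF and 6 on STD. Of 19 immediate-early genes, whose transcription responds to stimulation within minutes, 8 were higher in WKY rats on CAF and 14 on STD, with scores of 0.02 to 0.28 in WKY CAF against -0.54 to -0.19 in LEW CAF rats, and 0.36 to 0.54 in WKY STD against -0.48 to 0.19 in LEW STD rats.

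With the neutrophil score as a covariate, chosen after the data were seen, 3 of 10 cytokine transcripts stayed called on CAF (Tnf, Il12a and Il23a) and 2 on STD (Tnf and Il12a). With the immediate-early score 2 were called on CAF (Tnf and Il12a) and 0 on STD, with the erythroid score 3 on CAF and 6 on STD, and with the monocyte score 4 on CAF and 8 on STD, where Il1rn was lost (adjusted p = 0.0787) and Il10 added (adjusted p = 0.0239). With the heat shock score more were called, 8 on CAF, where Il6 (adjusted p = 0.00753) and Il10 (adjusted p = 0.0499) were added, and 9 on STD, where Il10 was (adjusted p = 0.00451). The calls among all 28826 transcripts moved too, from 2185 on CAF and 3247 on STD without a covariate. They numbered 993 and 447 with the neutrophil score and 943 and 613 with the immediate-early score, CAF first. With the erythroid score there were 1544 and 3150, with the monocyte score 1029 and 2908, and with the heat shock score 2556 and 3543. The log2 fold change of Il6 on STD was 0.72 with the neutrophil score (adjusted p = 0.854) and -0.40 with the immediate-early score (adjusted p = 0.882). With the monocyte score Il1a and Lif lost their CAF calls (limma, adjusted p = 0.220 and 0.0565), although their log2 fold changes grew. That of Lif was 1.37, against 1.05 without the score. That of Il1rn on STD shrank, to 0.55 from 0.62. The immediate-early and monocyte scores did not overlap between strains on either diet, nor did the erythroid score on CAF or the neutrophil score on STD. There the fits cannot tell score and strain apart. What part the cell make-up or the immediate-early response had in the strain differences was not tested.

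Within groups, 100 relations of the 10 transcripts to 10 marker and state scores were computed, of which 6 passed by r and 4 by rho. Over all 20 rats, Il10 followed the score of 4 B cell markers (Cd79b, Ms4a1, Cd22 and Blnk), with r = 0.84 (permutation p = 3.00e-05, adjusted p = 0.00300), rho = 0.85 (permutation p = 6.00e-05, adjusted p = 0.00600), r = 0.78 without the 2 rats farthest out in the score, and r = 0.82 in WKY and 0.84 in LEW rats. Il23a followed the neutrophil score, with r = 0.85 (permutation p = 7.00e-05, adjusted p = 0.00350), rho = 0.81 (permutation p = 1.50e-04, adjusted p = 0.00750), r = 0.70 without the 2 farthest rats, and r = 0.93 in WKY and 0.69 in LEW rats. Il6 (r = 0.76, adjusted permutation p = 0.0330) and Il12a (r = 0.73, adjusted permutation p = 0.0120) also followed the B cell score. Il1b followed the monocyte score (r = 0.57, adjusted permutation p = 0.0423) and Il12a the heat shock score (r = 0.57, adjusted permutation p = 0.0292), but neither passed by rho (adjusted permutation p = 0.178 and 0.115). Without the 4 arrays of high heat shock score none of the 100 relations passed, with r = 0.69 for Il10 and the B cell score and r = 0.75 for Il23a and the neutrophil score (adjusted permutation p = 0.108 for both). These 4 arrays were high for their groups in both Il10, by 0.65, 0.27, 0.65 and 0.44, and the B cell score, by 0.28, 0.10, 0.35 and 0.17, for LEW STD 2, LEW STD 3, WKY STD 1 and LEW CAF 2 in that order. Il10 had r = 0.65 with the heat shock score (adjusted permutation p = 0.0557). The part of these arrays in the relations was not tested further. The B cell score itself, at -0.06 to 0.22 in WKY CAF against -0.27 to 0.06 in LEW CAF rats and -0.21 to 0.33 in WKY STD against -0.34 to 0.29 in LEW STD rats, had none of its 4 markers called between strains on either diet.

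**Figure D5:**
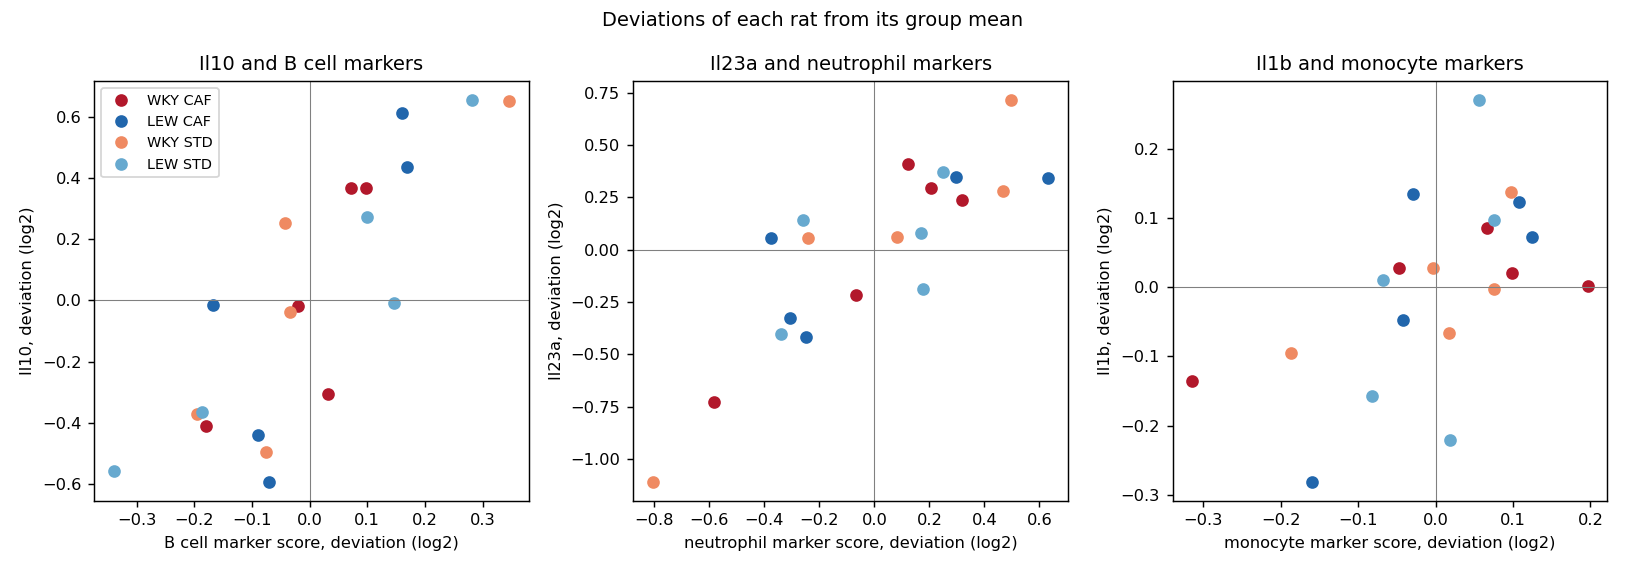
Deviation of each of the 20 rats from its group mean in log2 signal, Il10 against the B cell score, Il23a against the neutrophil score and Il1b against the monocyte score. The points rise together in the first 2 panels (r = 0.84 and 0.85) and more loosely in the third (r = 0.57).

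Genes that receive, release and control these cytokines were counted from 6 lists. Of 12 cytokine receptor genes 2 were higher in WKY rats on CAF and 3 on STD, none lower. Il1rap, the accessory chain of the interleukin 1 receptor, had a log2 fold change of 0.39 (adjusted p = 0.0243) on CAF and 0.65 (adjusted p = 2.09e-04) on STD, Il12rb2, a chain of the interleukin 12 receptor, 0.56 (adjusted p = 0.0134) and 0.53 (adjusted p = 0.0154), and Il1r2, the decoy receptor, passed on STD at 1.45 (adjusted p = 0.0201). Of 7 genes of processing and release 1 was higher and 1 lower on each diet: Adam17, whose product sheds TNF, was higher by 0.28 (adjusted p = 0.0158) on CAF and 0.44 (adjusted p = 2.59e-04) on STD, and Casp1, whose product cleaves IL1B and IL18 precursors, had -0.38 (adjusted p = 0.00589) on CAF and -0.29 (adjusted p = 0.0285) on STD. The median log2 fold changes of these lists were 0.10 and 0.22 for receptors and 0.07 and 0.18 for processing, CAF first.

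Of 14 related cytokines 2 were higher in WKY rats on CAF and 4 on STD, none lower. Il18 had a log2 fold change of 0.72 (adjusted p = 0.00434) on CAF and 1.00 (adjusted p = 1.26e-04) on STD, Clcf1, a cytokine of the interleukin 6 family, 0.64 (adjusted p = 0.00462) and 0.81 (adjusted p = 3.74e-04), and Il36b passed on STD at 0.62 (adjusted p = 0.0101). Of 12 NF-kB and IRF regulators 4 were higher on CAF and 7 on STD, none lower, with medians of 0.29 and 0.30. They included Nfkb2 (0.43 and 0.50) and Nfkbia, which encodes an inhibitor of NF-kB (0.38 and 0.49). Of 9 genes of cytokine mRNA decay 1 was higher on CAF and 3 on STD, none lower: Zc3h12c on both (0.66 and 0.76), and on STD Zfp36, whose product binds the 3' ends of Tnf and other cytokine mRNAs (0.47, adjusted p = 4.68e-04), and Zc3h12a, which encodes the RNase regnase-1 (0.66, adjusted p = 0.0107). Of 9 JAK-STAT genes 2 were higher and 2 lower on CAF, 3 and 2 on STD: the feedback inhibitor gene Cish (0.97 and 1.08) was higher on both, and Jak2 (-0.22 and -0.26) and Socs2 (-0.35 and -0.52) lower. No gene of the 6 lists was called between diets in either strain.

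The transcripts whose deviations over the 20 rats were most like those of each cytokine were looked up among 15208 others with a single symbol, as a description. Tnf was closest to Ccl3, which encodes the chemokine MIP-1 alpha (r = 0.96). Il1a was closest to Mitf (0.92), Sdc4 (0.91) and the neutrophil-attracting chemokine gene Cxcl2 (0.90), and Il1b to Bcl2a1 (0.89), Rhbdf2 (0.88) and again Cxcl2 (0.87). Il1rn was closest to Slc7a11 (0.92), which encodes a cystine transporter, Il6 to both transcripts of the metallothionein gene Mt2A (0.94 and 0.93) and to Txnrd1 (0.92), which encodes a thioredoxin reductase, and Il10 to Lrrc57 (0.92). Il23a was closest to Ralgds (0.91), Car8 (0.90) and Slpi (0.88), Lif to Prdx5, Ascl3 and Gdf15 (0.88 each), and Il12a to Plekhh3 (0.82). For Il12b the closest was Clec2d at 0.71, the lowest of the 10.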

How the data were processed

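RNA of blood cells was measured on 20 arrays, 1 per rat, 5 rats in each of 4 groups taken from the sample labels. Signals deposited by the authors are on a log2 scale, 1 value a probe set and array, after normalisation between arrays, and are described as RMA values in the methods and as MAS5 values (version not given) in the submitters' notes. The range was 3.57 to 14.4. Values entered the fits unaltered, without a filter, and every array was kept. Of 28826 probe sets, 15209 had 1 annotated symbol, 306 several, and 13311 were not listed.

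All tests of differences come from limma 3.58.1 (R 4.3.3), fitting a mean for each group. Degrees of freedom were 16 (residual) and 3.67 (prior), and p-values were adjusted by Benjamini-Hochberg across the 28826 probe sets. The median SE of a difference was 0.0689. The number of arrays limits the precision. On simulated data with 200 of 28826 transcripts changed by 1.5-fold, 184 were recovered for the strains on CAF and 181 on STD, with 7 and 11 false calls. The changed transcripts were drawn at random from all. Several cytokines had a much larger SE than the median, such as 0.43 for Il6, 0.33 for Il1a, 0.27 for Il23a and 0.17 for Tnf. Il12a and Il12b were near it. The share recovered therefore does not carry over to the cytokines. Correlations and their permutations were computed with NumPy 2.4.6, and the ranks for rho with SciPy 1.17.1. The labels do not say whether rats shared a litter, cage or day.

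All 10 cytokines are named, with at most 3 genes of each pathway list by smallest adjusted p in a comparison, and the nearest transcripts. From the cell type lists, only markers are named, without that limit; those printed with values were chosen after their values were seen. The cytokines and lists were chosen with earlier results of these data known. Where a listed gene had several probe sets, that with the highest mean was used.

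Alternatives tried were other normalisations between arrays, a filter on dim probe sets, single-symbol probe sets only, another variance model, array weights, the 2 groups alone, marker scores as covariates, the replicate number as a block, and each array left out in turn.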

Additional observations from a re-analysis of the deposited data

Results flagged for a closer look

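Each transcript was checked in each of the 4 groups for a rat far from the other 4, 40 checks in all, of which chance alone gives about 1 in 20. In LEW STD rats, Il1rn was at 11.99 in rat 4, against 12.72 in the nearest rat, a gap of 0.785 of the group's whole range.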

How the results depend on the processing

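With any of 3 marker scores as a covariate, fewer cytokine transcripts were called between strains: on CAF 3 of 10 with the erythroid, 2 with the immediate-early and 3 with the neutrophil score, against 6 without a covariate; on STD 0 with the immediate-early and 2 with the neutrophil score, against 8; averaged over diets 5, 2 and 2 with the same 3 scores, against 9. With the immediate-early score the log2 fold change of Il6 was -0.40 and that of Lif -0.076 on STD, and averaged over diets that of Il6 was -0.17 and that of Il10 -0.33 (Il10 alone -0.26 on CAF and -0.40 on STD, where it was not called without the score either). Tnf on STD was at 1.08 with this score, though not called (limma, adjusted p = 0.113). The cause was not tested. Leaving out 1 rat gave 5 to 8 calls on CAF, 7 to 9 on STD, 9 for the mean of diets, 0 for each diet comparison and the interaction, 0 to 1 for the spread and 0 to 11 pairs. The spread gave 2 calls without the 4 arrays of high heat shock score. Called pairs numbered 8, but 0 in WKY rats, 2 in LEW rats, 3 without the 2 farthest rats, and, with a score regressed out, 0 (monocyte), 4 (immediate-early), 15 (heat shock) and 4 (neutrophil). With the monocyte score regressed out the 8 pairs kept r of 0.47 to 0.79, at adjusted permutation p of 0.0513 to 0.0713.

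Among all transcripts, the calls on CAF numbered 2185, but 1029 with the monocyte, 943 with the immediate-early and 993 with the neutrophil score; those on STD numbered 3247, but 613 with the immediate-early and 447 with the neutrophil score; those for the mean of diets 4947, but 2432, 1061 and 923 with the monocyte, immediate-early and neutrophil scores and 3259 among transcripts with a single symbol only, where fewer were tested. Between diets, 1 transcript, none of the 10, was called in WKY rats with the replicate block and without WKY CAF rat 4. Array weights added Il1rn (adjusted p = 0.0208), Il6 (adjusted p = 0.0109) and Il12b (adjusted p = 0.0491) on CAF and ended the STD call of Il6 (adjusted p = 0.0735). Signal near the low range limits Il12a and Il12b. Groups share replicate numbers, but the deviations of same-numbered rats correlated at -0.177 to 0.430, over 0.1 in 6 of 20 pairs, so the numbers were not taken to pair rats. With the replicate block 7 cytokine transcripts were called on CAF and 9 on STD, Il6 (adjusted p = 0.0454) and Il10 (adjusted p = 0.0137) being added, and 10 pairs.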
